A study of Mus musculus with 2 samples.

Results

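The constitutive proteasome subunit genes were followed through the cells of mouse tumors. They were taken as every gene of the expression table whose symbol has the form Psma, Psmb, Psmc, Psmd or Psme followed by a number, without Psmb8, Psmb9 and Psmb10. That gave 39 of 16416 genes, of which 15 encode the 20S core (Psma1 to Psma8 and Psmb1 to Psmb7) and 24 encode regulatory particles (Psmc1 to Psmc6, Psmd1 to Psmd14 and Psme1 to Psme4). The 3 genes left out encode the catalytic subunits of the immunoproteasome and serve as a comparison.

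The proteasome is the main protease for proteins tagged with ubiquitin. Its 20S core is a barrel of stacked rings: alpha subunits form the outer rings and gate the barrel, and beta subunits form the inner rings, where 3 of them cut peptide bonds. The 19S particle at either end binds ubiquitin, unfolds the substrate with a ring of ATPases and removes the ubiquitin. In immune cells, and in other cells exposed to interferon gamma, the catalytic subunits Psmb5, Psmb6 and Psmb7 are replaced in new particles by Psmb8, Psmb9 and Psmb10, and the activator made of Psme1 and Psme2 can take the place of the 19S particle. Both changes are known for their part in making peptides for MHC class I.

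Tumors engrafted in wild-type (WT) mice were compared with tumors in hosts that carry the HSF1 allele S303/7A, in which alanine replaces serine at positions 303 and 307 of heat shock factor 1. This factor binds DNA and raises the transcription of chaperone genes when proteins misfold. Each genotype gave 1 library of sorted live CD45+ and CD45- cells mixed 5 to 1, and the design text speaks of tumors of 4 mice being pooled. The genotype given is that of the host. The sources used here do not name the tumor line, the genotype of the grafted cells, or the strain and age of the mice. A substitution in HSF1 need not alter its RNA level, so that level does not check the labels. With 1 library per genotype there is no replicate check and no test: all intervals are exact 95% intervals that cover counting error only.

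Promoters are shown for the catalytic genes Psmb5 and Psmb6, which the immunoproteasome genes replace, for Psma7, which was lower in S303/7A in each compared cluster, and for Psme1, a subunit of the activator induced by interferon gamma. RefSeq windows (GRCm38.p6, 250 bases before to 50 after a start) matched 32 of the 39 members. For the first 3 the 250 bases before the start are printed 5′ to 3′ on the gene's strand, with matches to searched motifs in capitals. Psmb5 (chr14:54617996-54618245, minus strand) and Psmb6 (chr11:70525107-70525356, plus strand) each hold 1 match to TGACNNNGC, the core of the element bound by NFE2L1 and related factors, starting 47 and 9 bases before the start. Psma7 (chr2:180042465-180042714, minus strand) holds 1 CCAAT box, 196 bases before the start.
Psmb5: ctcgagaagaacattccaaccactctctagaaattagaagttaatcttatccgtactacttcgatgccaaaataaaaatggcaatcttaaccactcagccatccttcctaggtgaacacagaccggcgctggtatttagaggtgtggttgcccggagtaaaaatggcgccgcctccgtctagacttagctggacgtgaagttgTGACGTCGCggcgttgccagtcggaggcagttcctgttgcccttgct
Psmb6: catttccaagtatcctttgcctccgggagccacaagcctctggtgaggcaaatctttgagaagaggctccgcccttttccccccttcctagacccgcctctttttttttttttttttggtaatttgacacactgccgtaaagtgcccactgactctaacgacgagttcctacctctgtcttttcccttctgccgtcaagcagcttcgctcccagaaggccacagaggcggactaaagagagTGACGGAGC
Psma7: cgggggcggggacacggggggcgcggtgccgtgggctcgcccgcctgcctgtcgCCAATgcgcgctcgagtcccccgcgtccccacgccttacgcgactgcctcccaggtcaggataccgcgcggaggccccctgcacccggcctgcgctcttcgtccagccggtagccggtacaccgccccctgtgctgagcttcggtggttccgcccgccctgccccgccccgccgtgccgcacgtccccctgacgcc

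TGACNNNGC, searched on both strands, lay in the windows of 6 of 32 members (18.75%: Psmb5, Psmb6, Psmc6, Psmd9, Psmd12 and Psme4), beside 16.81% of the 12025 genes of the table that had a window. CCAAT lay in 12 members (37.5%) beside 42.43%. TTCNNGAA, the pair of units at the centre of a heat shock element, lay in Psmd4 and Psme3 (6.25%) beside 8.2%, and in 0 of 11 core members with a window. None of these shares was more than slightly above that of other genes. Of 2 motifs added after values had been seen, GAAANNGAA, the core of an interferon-stimulated element, lay in 6 members (18.75%) beside 9.114%, and TTCNNNGAA, the form bound by STAT factors, in 1 (Psmd2, 3.125%) beside 8.366%. Psme1 is shown at its GAAANNGAA match, which begins 11 bases after the start and reads on the other strand (chr14:55578494-55578523, plus strand, match in capitals).
Psme1: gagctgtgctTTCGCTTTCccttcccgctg

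There were 6654 WT cells with 87075636 UMIs in all (unique molecular identifiers, each marking 1 captured RNA molecule), and 4802 cells with 72802161 UMIs from S303/7A hosts. Median depth was 7698 UMIs per WT cell and 13028 per S303/7A cell. The libraries shared 48 cell barcodes. Levels are means over cells of UMIs per 10000 UMIs of the cell (CP10K), so that a lower level is a smaller share of a cell's RNA. The 3′ tags count each molecule once whatever its length. The submitters' 22 clusters and 11 classes were used, and comparisons were limited to the 17 (C01 to C17) that had 50 or more cells from both libraries. In these, the depth ratio (median UMIs of S303/7A cells divided by that of WT cells) ran from 0.99 (C14) to 2.45 (C02). The NK cluster C10 held the NK receptor gene Ncr1 at 4.20 (WT) and 4.79 (S303/7A) CP10K, and the tumor clusters C01, C04, C08 and C14 held the immune gene Ptprc at 0.07 or less. Markers did not match every label. The Stromal cluster C15 had Pecam1, Col1a1 and Rgs5 at 0.36 CP10K or less, the Gr cluster C22 held the mast cell gene Cma1 at 403 and 324, and the macrophage (MF) cluster C05 also held Cd3e at 1.41 and 1.48.

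Core subunit genes were detected in every cluster, at sums between 26.0 and 51.3 CP10K in the compared clusters. Their summed level in WT was lowest in the MF cluster C09 (29.8 CP10K), the tumor cluster C14 (31.3) and NK cells (34.9). It was highest in the monocyte cluster C07 (51.3), the CD8 T cluster C11 (51.3) and the MF cluster C02 (46.7). In S303/7A the same sum was lowest in C09 (26.0), C14 (27.8) and the tumor cluster C08 (31.9), and highest in C11 (51.1), C15 (48.5) and C07 (47.0). Regulatory genes other than Psme1 and Psme2 together took 13.8 to 20.8 CP10K in the compared clusters. Psme1 and Psme2 were unlike the rest: their sum ran from 2.29 CP10K in C14 to 33.5 in the DC cluster C17 in WT, and from 2.08 to 32.1 in the same clusters of S303/7A. C17 held the DC maturation gene Ccr7 at 22.7 CP10K in WT.

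**Figure D1:**
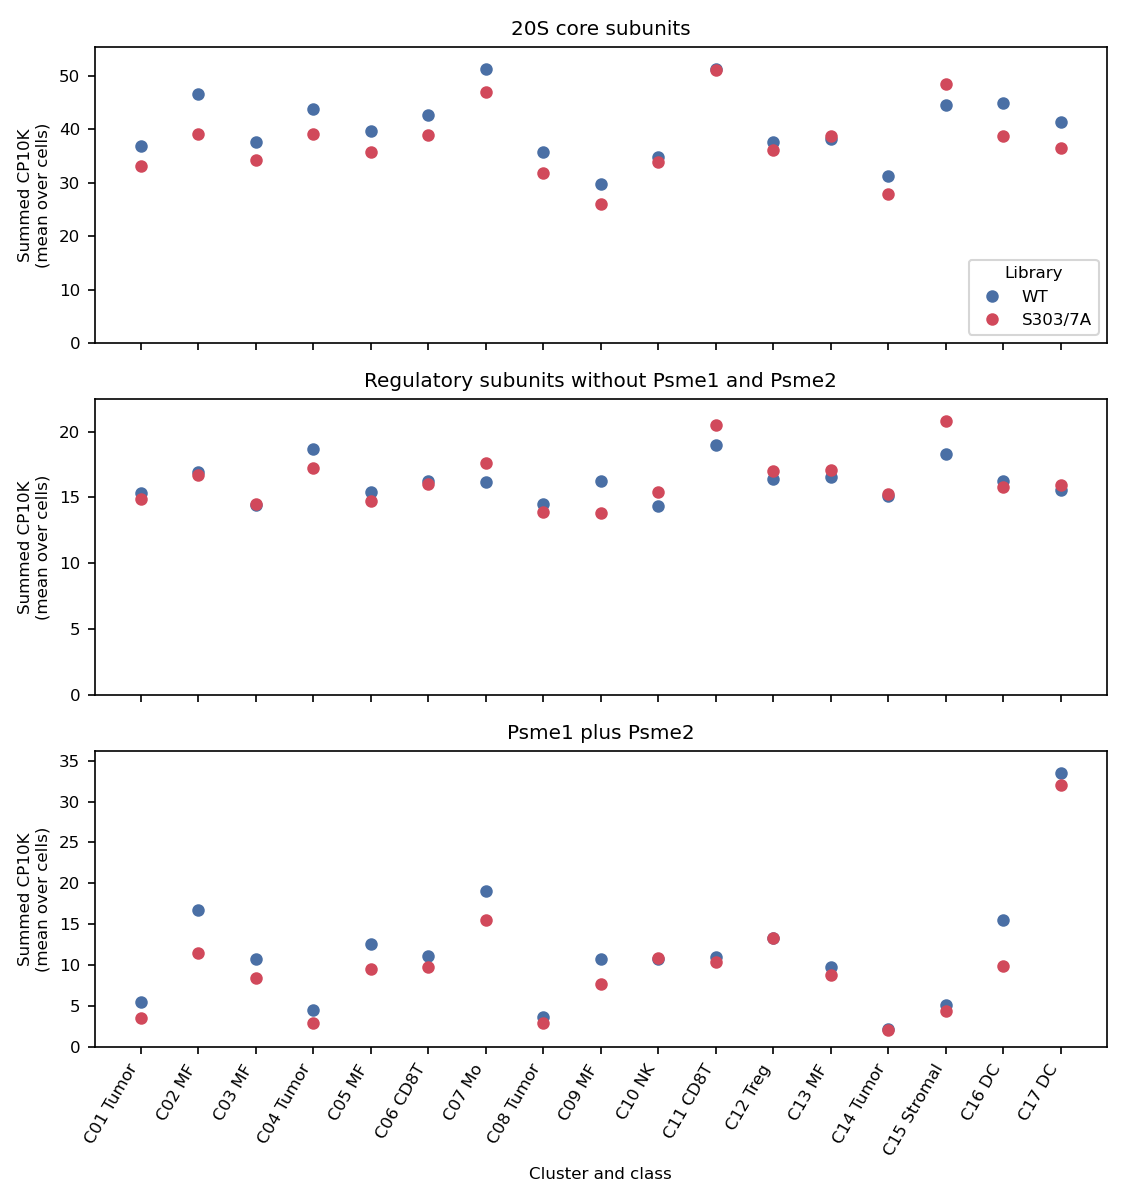
Summed levels (CP10K, mean over cells) of the 15 core genes, of the 22 regulatory genes without Psme1 and Psme2, and of Psme1 plus Psme2, in the 17 compared clusters. Each point is 1 library (blue WT, red S303/7A), and the core points are lower in S303/7A in 15 clusters, while the regulatory points without Psme1 and Psme2 are lower in 8.

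The summed core level was lower in the S303/7A library in 15 of 17 clusters. The largest gaps were in C02, with 46.7 CP10K in WT and 39.1 in S303/7A (0.838 times), and in the DC cluster C16, with 45.0 and 38.8 (0.863 times). The median ratio over clusters was 0.901. The tumor clusters gave 37.0 and 33.1 CP10K (C01), 43.7 and 39.1 (C04), 35.8 and 31.9 (C08), and 31.3 and 27.8 (C14). The other macrophage clusters gave 37.7 and 34.2 (C03), 39.8 and 35.9 (C05), and 29.8 and 26.0 (C09), and monocytes 51.3 and 47.0. In lymphoid cells the levels lay closer together: 51.3 and 51.1 in C11, 37.7 and 36.1 in Tregs and 34.9 and 34.0 in NK cells, with the CD8 T cluster C06 wider apart at 42.8 and 38.9. C17 gave 41.4 and 36.6. The exceptions were the MF cluster C13 (38.3 and 38.8) and C15 (44.6 and 48.5). The ratio of summed UMIs had an interval below 1 in 12 clusters and above 1 in none. It included 1 in NK cells, C11, the Treg cluster C12, C13 and C15. In the 5 clusters with too few cells to be compared (9 to 47 in a library), the sums were 26.5 and 18.95 in the Gr cluster C18, 48.7 and 40.0 in the pDC cluster C19, 53.8 and 45.5 in the DC cluster C20, 30.5 and 19.9 in the B cluster C21, and 27.4 and 25.2 in C22.

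Depth moved with genotype in most clusters. Among clusters with depth ratios of 2.002 to 2.45, the UMI ratio of the core was 0.845 (0.829 to 0.862) in C02, 0.886 in C03, 0.899 in C05, 0.913 in C07 and 0.989 (0.961 to 1.018) in C13. Among those with depth ratios of 1.54 to 1.84, it was 0.898 in C06, 0.847 in C09, 0.972 in NK cells, 0.979 in C12, 0.851 in C16 and 0.903 in C17. Where the depth ratio was 1.39 or less, it was 0.909 in C01, 0.882 in C04, 0.893 in C08, 0.995 in C11, 0.937 (0.917 to 0.957) in C14 and 1.006 in C15. The part of depth in the core difference was not tested. With every cell thinned to 1000 UMIs, the core sum was lower in S303/7A in 14 of 17 clusters, and the log2 ratio moved by more than its counting interval in 8. Without ribosomal protein and mitochondrially encoded genes in the denominator, 13 of 17 did, and the sums of NK cells, C11 and C12 were then higher in S303/7A (log2 ratios of 0.04, 0.01 and 0.02). That setting moved 9 of the 17 log2 ratios by more than their counting interval.

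In the macrophage, monocyte and DC clusters, markers of neighbouring cell types moved with the libraries as well. The monocyte markers Ly6c2, Plac8 and Chil3 had a lower sum in S303/7A in 8 of 8 such clusters, at 0.238 to 0.551 times the WT level. Ly6c2 and Plac8 were lower in 8 of 8, and Chil3 in 6, being at 0 in 1 library of C16 and of C17. In C02 the sum was 93.9 CP10K in WT against 23.6, in C16 46.9 against 12.5, and in C07 204 against 113. The macrophage markers C1qa, C1qc and Adgre1 had a higher sum in S303/7A in 8 of 8, at 1.01 to 2.70 times the WT level. In C07 it was 14.2 CP10K in WT against 32.5. C1qa and C1qc made up most of that sum. Singly, C1qa was lower in S303/7A in 1 cluster (C17), C1qc in 0 and Adgre1 in 2 (C13 and C16). Monocytes also had the highest Psma7 level. Ly6c2 and C1qa shifted outside the myeloid clusters too. In WT and S303/7A, Ly6c2 was 16.2 and 7.95 CP10K in C06, 14.6 and 7.67 in NK cells, and 0.226 and 0.0804 in C01. C1qa was 1.34 and 2.54 in C06, 1.18 and 2.23 in NK cells, and 0.360 and 0.616 in C01. In C15 C1qa was lower in S303/7A (0.966 and 0.808). The part of all these shifts in the core, Psma7, immunoproteasome, Psme1 and Psme2 differences was not tested.

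**Figure D2:**
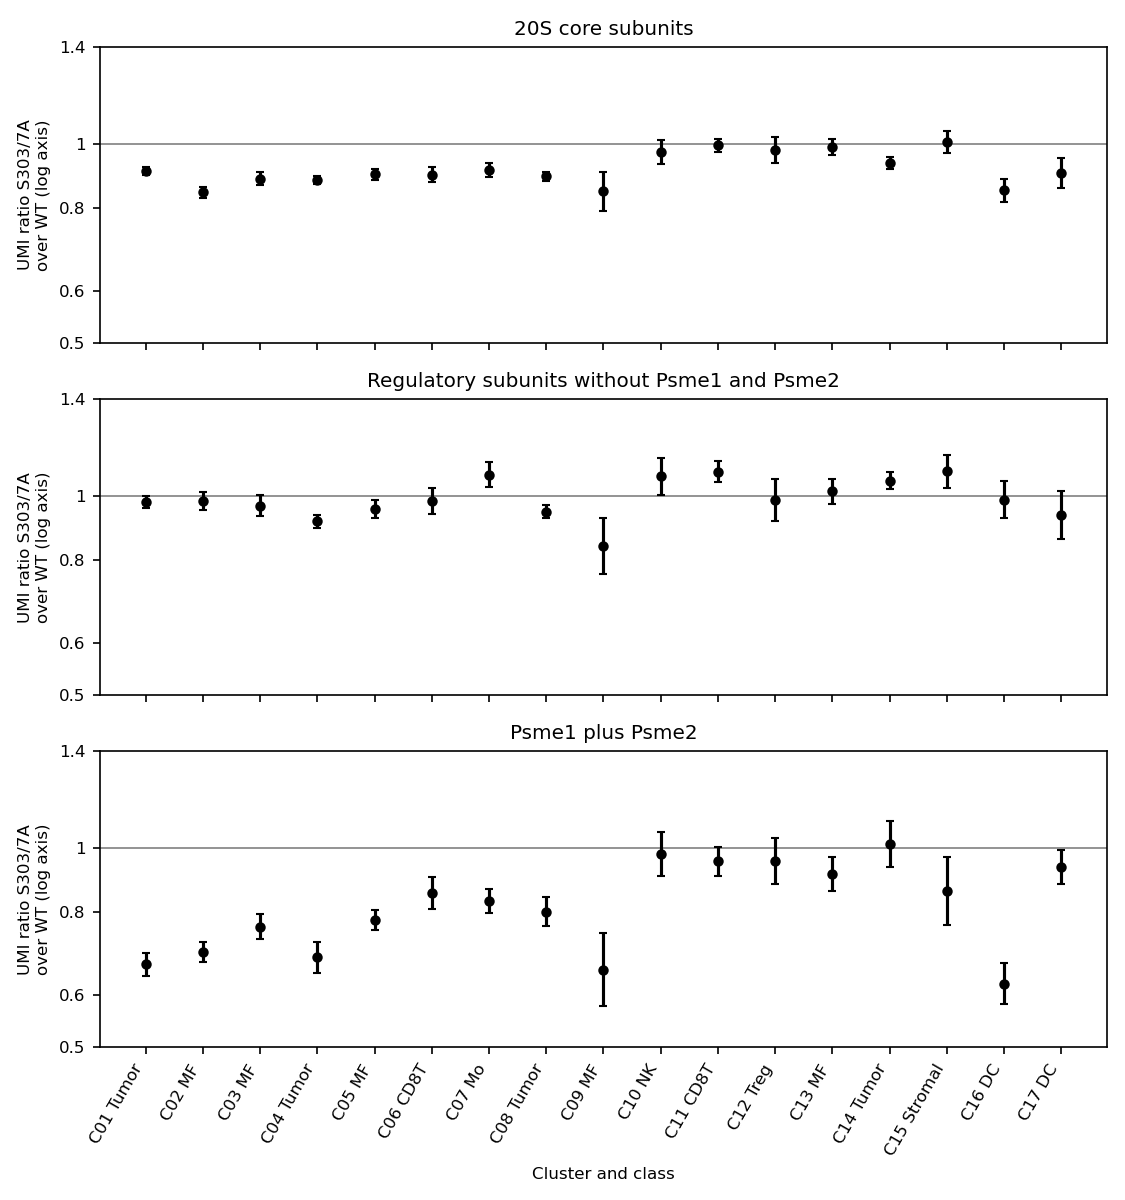
Ratio of summed UMIs, S303/7A over WT, relative to all UMIs of the cluster (log axis), with exact 95% counting intervals, for the same 3 sums in 17 clusters. The core interval lies below 1 in 12 clusters, and the regulatory interval without Psme1 and Psme2 lies below 1 in 4 and above 1 in 5.

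Psma7 had the highest median level of the alpha ring (4.57 CP10K). Its level was lower in S303/7A in 17 of 17 clusters, with a median log2 ratio of -0.26 (pseudocount of 0.1 CP10K throughout). In C02 its level was 7.57 CP10K (WT) and 4.95 (S303/7A), and the ratio of UMIs was 0.669 (0.635 to 0.704). In C03, another MF cluster, it was 5.70 and 3.66, with a UMI ratio of 0.627 (0.589 to 0.668), and in monocytes 9.57 and 6.67, with 0.693 (0.651 to 0.739). These are myeloid clusters, whose depth ratios were also high (2.45 in C02, 2.002 in C03 and 2.10 in C07) and whose monocyte markers were lower in S303/7A (6.06 CP10K in WT against 1.44 in C03, with C02 and C07 given above). The part of either in the Psma7 difference was not tested. The other macrophage clusters held 5.53 and 4.02 CP10K (C05), 5.16 and 3.33 (C09), and 5.05 and 4.08 (C13), and the DC clusters 7.11 and 4.83 (C16) and 6.08 and 5.06 (C17). Tumor clusters held 3.29 and 2.81 in C01, 4.48 and 3.95 in C04, and 3.34 and 2.97 in C08. In T cells Psma7 was 4.73 and 3.71 (C06), 5.38 and 4.93 (C11), and 3.81 and 3.29 (C12), and in C15 it was 6.47 and 6.15. The size of the difference thus varied between clusters while the direction of the mean level did not. In NK cells Psma7 was 3.99 and 3.68 CP10K (UMI ratio 0.902, 0.796 to 1.022), and in C14 it was 2.93 and 2.84 (1.013, 0.947 to 1.084), so the interval included 1 in both clusters. The direction was the same in 17 clusters without ribosomal and mitochondrial genes, and in 15 after thinning. Psma7 lies at chr2:180036374-180042433 (GRCm38), and the last 500 bases of its transcript shared no stretch of 31 bases with any other gene.

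Among the other alpha genes, Psma1, Psma2, Psma3, Psma4 and Psma5 had median log2 ratios between -0.15 (Psma2) and -0.06 (Psma4). Psma6 stood apart at 0.02. Its interval was above 1 in 5 clusters and below 1 in none, and in NK cells it was 0.978 CP10K in WT and 1.60 in S303/7A. The testis subunit Psma8 was at 0.03 CP10K or less in each compared cluster, averaged over the libraries, and counted as measured in none. A gene counted as measured where that average reached 0.1 CP10K. Leaving out Psma7, the core sum was lower in 14 of 17 clusters, with a median ratio of 0.925.

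**Figure D3:**
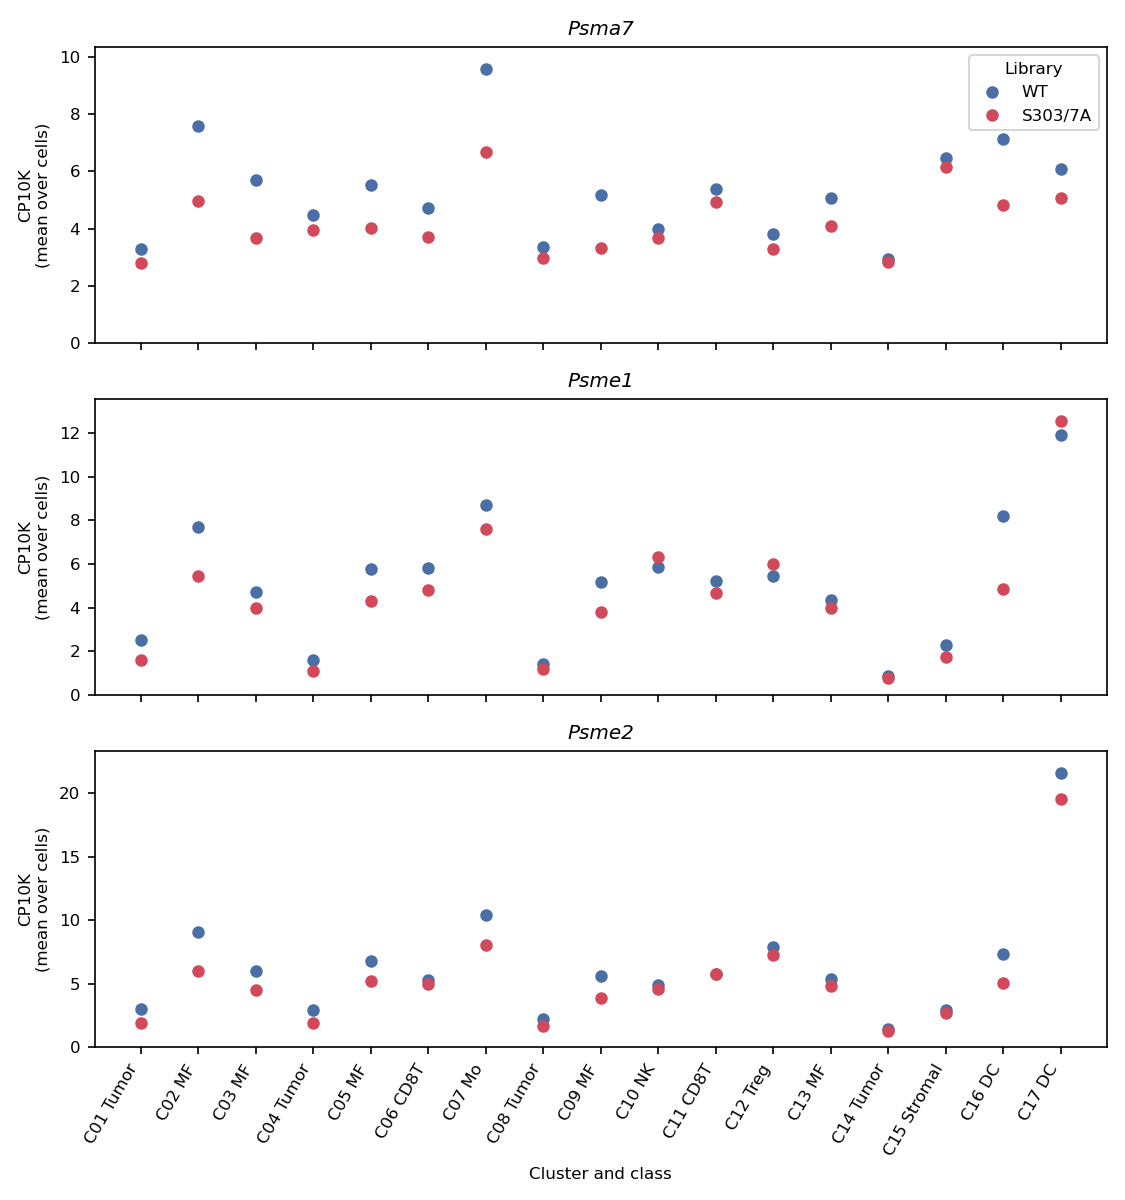
Levels (CP10K, mean over cells) of Psma7, Psme1 and Psme2 in the 17 compared clusters, 1 point per library (blue WT, red S303/7A). Psma7 is lower in S303/7A in 17 clusters, and Psme1 and Psme2 peak in the DC cluster C17.

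The beta subunits without catalytic activity, Psmb1 to Psmb4, had median log2 ratios from -0.13 (Psmb1) to -0.03 (Psmb2). Psmb1 was 6.27 CP10K in WT and 5.71 in S303/7A in C01. It was lower in S303/7A in 15 clusters and its interval was below 1 in 6.

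The 3 catalytic genes differed among themselves. Psmb5, the chymotrypsin-like subunit, was lower in S303/7A in 13 clusters with a median log2 ratio of -0.14. It was 2.21 CP10K in WT and 1.94 in S303/7A in C01, 2.52 and 2.19 in C02, and 2.34 and 1.89 in NK cells. Psmb6, the caspase-like subunit, was lower in 15 clusters (median -0.12), with 3.65 and 2.97 CP10K in C02 and 3.87 and 3.23 in C04. Psmb7, the trypsin-like subunit, was lower in 9 and higher in 8 (median -0.02), with 1.72 and 1.69 CP10K in C02. In C15, Psmb5 was higher in S303/7A, at 2.63 CP10K against 2.10, with a UMI ratio of 1.243 (1.054 to 1.468). The interval was below 1 in 7 clusters for Psmb5, in 7 for Psmb6 and in 3 for Psmb7.

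Their immunoproteasome counterparts differed more between the libraries. The sum of Psmb8, Psmb9 and Psmb10 was lower in S303/7A in 17 of 17 clusters, with a median ratio of 0.747 and the interval below 1 in 16. It was 6.57 CP10K in WT and 3.28 in S303/7A in C01, 26.7 and 16.2 in C02, and 16.5 and 16.0 in NK cells. In C01, Psmb8 was 3.42 and 1.69 CP10K, Psmb9 1.296 and 0.607, and Psmb10 1.85 and 0.983. Psmb9 was lower in 16 clusters and Psmb10 in 14. Without ribosomal and mitochondrial genes the sum was lower in 14 clusters.

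The mix of the 2 kinds of catalytic subunit was measured as the share of Psmb8, Psmb9 and Psmb10 in the UMIs of these and of Psmb5, Psmb6 and Psmb7. It was lowest in the tumor cluster C14, with 18.6% in WT (17.6 to 19.5) and 17.3% in S303/7A (16.0 to 18.6). In C01 it was 47.9% in WT (47.3 to 48.5) and 34.3% in S303/7A (33.3 to 35.3), and in C04 35.4% (34.9 to 35.9) and 24.2% (23.0 to 25.3). C08 had 35.3% and 28.8%, and C15 40.5% and 30.5%. Immune clusters held 63.1% to 80.8%. Monocytes had 80.8% in WT (80.0 to 81.6) and 76.3% in S303/7A (75.4 to 77.2), and C02 had 76.5% (75.7 to 77.2) and 70.0% (69.2 to 70.7). The other macrophage clusters had 71.0% and 65.1% (C03), 72.4% and 68.9% (C05), 72.9% and 63.1% (C09), and 69.1% and 66.1% (C13). C16 had 78.3% and 71.9%, and C17 80.1% and 79.4%. The T cell clusters had 75.9% and 74.8% (C06), 69.3% and 67.9% (C11), and 78.4% and 76.5% (C12). The share was lower in S303/7A in 16 of 17 clusters, with intervals that did not overlap in 11. In NK cells it was 72.8% (71.3 to 74.4) and 73.1% (71.4 to 74.8), and the intervals also overlapped in C06, C11, C12, C14 and C17. When the mean over cells or thinned cells were used in place of summed UMIs, the share was lower in 14 clusters.

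**Figure D4:**
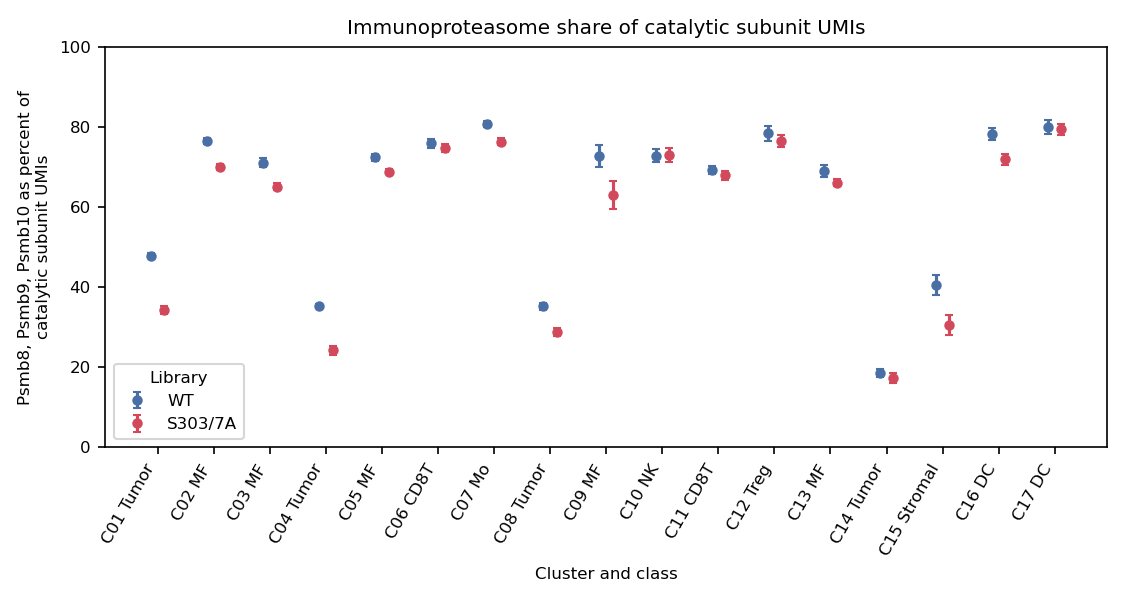
Psmb8, Psmb9 and Psmb10 as a percent of the UMIs of all 6 catalytic genes in the 17 compared clusters, with exact 95% binomial intervals for counting error (blue WT, red S303/7A). The tumor clusters and C15 lie at 17.3% to 47.9% and the immune clusters at 63.1% to 80.8%.

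Regulatory genes as a whole gave a lower sum in S303/7A in 13 of 17 clusters, with the interval below 1 in 11 and above 1 in 2. That count rested on Psme1 and Psme2. Without them the sum was lower in 8 of 17 clusters, with a median ratio of 1.007 and intervals below 1 in 4 clusters and above 1 in 5. Those above 1 were monocytes, NK cells, C11, C14 and C15. Their depth ratios were 2.10, 1.62, 1.39, 0.99 and 1.10.

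The 6 ATPases of the 19S particle, which unfold substrates, had median levels of 0.527 to 1.01 CP10K. Their sum was lower in S303/7A in 11 clusters, as in C04 (5.73 CP10K in WT, 5.04 in S303/7A) and in C02 (5.55 and 5.06). It was higher in NK cells (4.10 and 4.75), in C11 (5.60 and 6.57) and in C15 (5.65 and 8.07), with intervals of the UMI ratio above 1 in these 3. In C15 the UMI ratio was 1.18 (1.07 to 1.31), smaller than the ratio of mean levels (1.43). Within C15, Psmc1 was 0.546 (WT) and 1.26 (S303/7A) CP10K, with a UMI ratio of 1.59 (1.19 to 2.13). Psmc2 was 0.63 and 0.24 in C09, but with an interval of 0.30 to 1.03 in these shallow cells.

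The 11 non-ATPase subunits include the scaffold genes Psmd1 and Psmd2, the ubiquitin receptor Psmd4 and the deubiquitinase Psmd14. Their sum was lower in S303/7A in 6 of 17 clusters, with 9.83 CP10K in WT and 10.1 in S303/7A in C02, and 10.8 and 10.1 in C04. Psmd1, Psmd3, Psmd8 and Psmd13 leaned toward S303/7A, with median log2 ratios of 0.12, 0.12, 0.09 and 0.07. Psmd8 was 1.302 and 1.93 CP10K in C13, with a UMI ratio of 1.44 (1.23 to 1.68), and Psmd3 was 0.40 and 0.55 in monocytes (1.46, 1.12 to 1.91). Psmd4 and Psmd14 were each lower in 12 clusters, with median log2 ratios of -0.07 and -0.07. Few of their intervals excluded 1: for Psmd4, 1 was below and 1 above, and for Psmd14, 0 were below and 1 above. Of the chaperones that help to build the ATPase ring, Psmd5, at a median of 0.186 CP10K, was lower in 2 of the 16 clusters where it was measured. Psmd9 was lower in 10 clusters and Psmd10 in 8.

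Among the activators, Psme1 and Psme2 carried most of the RNA and most of the difference. In C01, Psme1 was 2.54 CP10K in WT and 1.59 in S303/7A, with a UMI ratio of 0.655 (0.617 to 0.695), and Psme2 was 3.00 and 1.93 (0.678, 0.643 to 0.715). In C16 they were 8.19 and 4.86, and 7.36 and 5.05. Summed, they were 16.8 and 11.5 CP10K in C02, 10.7 and 8.50 in C03, 12.6 and 9.53 in C05, 10.8 and 7.68 in C09, 9.77 and 8.80 in C13, and 19.1 and 15.6 in monocytes. In the other tumor clusters the sums were 4.54 and 3.01 (C04), 3.66 and 2.90 (C08), and 2.29 and 2.08 (C14). T cells had 11.1 and 9.79 (C06), 10.999 and 10.5 (C11), and 13.4 and 13.3 (C12), and C15 had 5.21 and 4.42. Their sum was lower in S303/7A in 16 of 17 clusters, with a median ratio of 0.815 and the interval below 1 in 13. NK cells were the exception by mean level, with 5.86 and 6.33 CP10K for Psme1 and 4.89 and 4.59 for Psme2. By summed UMIs the ratio was 0.980 (0.909 to 1.056) in NK cells and 1.015 (0.937 to 1.100) in C14. Which cluster was the exception thus depended on how cells were weighted. In C11, C12 and C14 the interval of the summed ratio also included 1. Both genes lie on chromosome 14 (GRCm38 chr14:55578123-55581529 and chr14:55587441-55591113), while Psmb8 and Psmb9 lie on chromosome 17. Psme3, the nuclear activator, and Psme4, which caps the core in sperm cells and after DNA damage, had median levels of 0.424 and 0.252 CP10K and were each lower in 12 clusters. Psme4 was 0.232 and 0.0658 CP10K in C15.

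Counts of members that were lower in S303/7A are given beside the share of all measured genes that were lower in the same cluster. In C01, 28 of 38 measured members were lower in S303/7A beside 49.7% of all genes. The counts were 27 beside 49.1% in C02, 25 beside 44.8% in C03, 30 beside 61.4% in C04 and 28 beside 50.2% in C05. C06 had 29 beside 53% and C08 had 32 beside 57.3%. In C09 there were 27 beside 49.6%, in C14 23 beside 54.8%, in C16 24 beside 47.5%, and in C17 22 of 37 beside 52.2%. In these 11 clusters the members' share was above the background, by the least in C14 and C17, and in the remaining 6 it lay near or under it. Monocytes had 16 beside 43.9%, NK cells 16 beside 54.8%, C11 17 beside 50.6%, C12 18 beside 56.4%, C13 18 beside 45.8% and C15 13 beside 55%.

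Differences past 0.32 on the log2 scale were few in most clusters, but not in C09, C12, C15, C16 and C17. Counts are out of 38 measured members (37 in C17), and again stand beside the share of all genes past the same size. In C01, 3 members were lower (3.68%) and 0 higher (3.32%), in C02 5 (13.2%) and 0 (12.9%), and in C03 2 (7.99%) and 1 (11.8%). In C04, 2 were lower (5.38%) and 0 higher (2.6%), in C05 3 (8.31%) and 0 (8.32%), and in C06 1 (12.2%) and 0 (9.33%). The lower members of these clusters included Psma7, Psme1 or Psme2 in each case. In monocytes 2 were lower (13.6%) and 2 higher (21%), in C08 2 (5.76%) and 0 (3.77%), and in C09 12 (22.4%) and 1 (24.1%). In NK cells 1 was lower (17.6%) and 2 higher (12.3%), in C11 0 (8.43%) and 1 (8.45%), and in C12 4 (26.1%) and 8 (17.1%). In C09 and C12, whose median cells had 1386 to 3702 UMIs, many other genes passed this size too. So they did in C15 and C17, whose median cells had 5666.5 to 10450 UMIs. In C13, 0 were lower (9.24%) and 2 higher (12.5%), in C14 2 (10.4%) and 0 (8.94%), and in C15 6 (32.6%) and 10 (21.6%). The DC clusters had 7 lower (16.4%) and 3 higher (18.7%) in C16, and 7 (26%) and 4 (21.2%) in C17.

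Over the 17 clusters, 28 of 38 members had a median log2 ratio below 0, beside 52.4% of 10575 genes. They were 13 of the 14 measured core members and 15 of 24 regulatory members. The median member was below 0 in 11 clusters and below the median of all genes in 13. The core median ran from -0.20 (C02) to 0.18 (C15) and the regulatory median from -0.17 (C09) to 0.10 (NK cells), while the median of all genes stayed between -0.06 and 0.05. The split between core and regulatory genes was not tested.

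**Figure D5:**
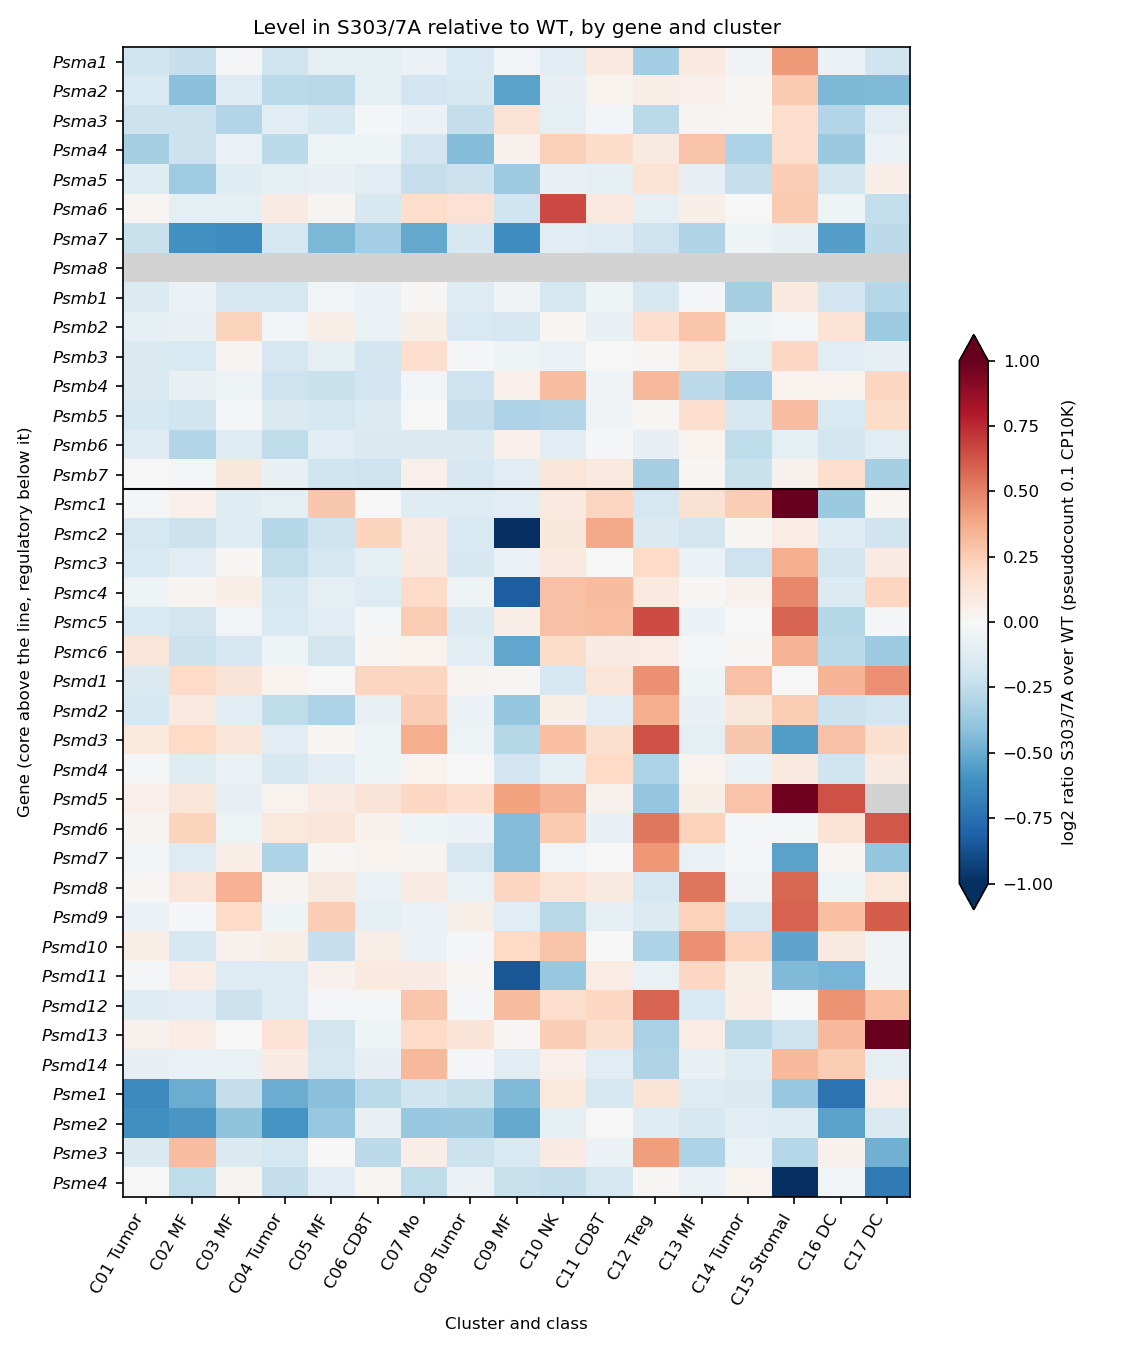
Log2 ratio of S303/7A over WT (colour, pseudocount 0.1 CP10K) for the 39 genes (rows, core above the line) in the 17 compared clusters (columns). Grey marks genes that were not measured. The rows of Psma7 and Psme2 are blue (lower in S303/7A) in 17 and 16 clusters, and the row of Psme1 in 14.

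In NK cells, the cell type of the series' title, the core sum was 34.9 (WT) and 34.0 (S303/7A) CP10K, with a UMI ratio of 0.972 (0.932 to 1.013). Its 357 and 194 cells had median depths of 3621 and 5864.5 UMIs. The members with the lowest log2 ratios were Psmd11 (1.080 and 0.81 CP10K, UMI ratio 0.82, 0.63 to 1.06) and Psmb5 (UMI ratio 0.845, 0.712 to 1.002). The highest were Psma6 (UMI ratio 1.37, 1.10 to 1.72) and Psmd5 (0.16 and 0.22 CP10K, 1.09, 0.60 to 1.99). Of these 4, the interval of Psma6 excluded 1.

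In other clusters the lowest 2 log2 ratios were most often those of Psma7, Psme1 and Psme2, whereas Psmd5, a low-level gene, was among the highest 2 in C08, C09, C14, C15 and C16. The interval of Psmd5 included 1 in C08, C09, C14 and C15. In C15 its UMI ratio was 0.83 (0.40 to 1.69), opposite in direction to its mean level. Psme3 was 0.38 CP10K in WT and 0.50 in S303/7A in C02, with a UMI ratio of 1.32 (1.08 to 1.62). In C08 the lowest was Psma4 (2.25 and 1.65, UMI ratio 0.73, 0.69 to 0.78), and in C14 Psmb4 and Psmb1 were lowest (2.01 and 1.56 CP10K, and 4.53 and 3.59). In C17 the highest was Psmd13 (0.42 and 0.96, UMI ratio 1.78, 1.15 to 2.84). C12 led with Psmc5 (0.64 and 1.06), whose interval of 0.83 to 1.61 included 1.

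The core sum was also higher in dividing tumor and CD8 T cells. Cycling clusters were recognised by Mki67, Top2a, Birc5, Ube2c and Pclaf, whose sum was 12.04 CP10K in C04 in WT and 10.5 in S303/7A, against 0.94 or less in the other tumor clusters. C04 held 1.22 times the core level of the median other tumor cluster in WT and 1.23 times in S303/7A, and 13 and 14 of 15 core genes were higher there. C11 (cycle markers 27.8 and 21.3 CP10K) held 1.20 and 1.31 times the level of the other CD8 T cluster C06. C13, the macrophage cluster with cycle markers at 15.5 and 16.6 CP10K, held 0.988 times the median of the other macrophage clusters in WT and 1.11 times in S303/7A. Of those, C05 (6.69 and 5.08 CP10K) and C09 (4.30 and 3.74) also held cycle markers, against 0.63 and 0.46 in C02 and 1.405 and 0.78 in C03. Regulatory genes without Psme1 and Psme2 stood at 1.24 times in WT and 1.16 times in S303/7A in C04. The same ratios were 1.17 and 1.28 in C11, and 1.05 and 1.17 in C13. C04 was also the deepest cluster, with 35113.5 and 41351 UMIs in its median cells. C11 was deeper than C06 too, with 9747 UMIs against 4577 in WT and 13510 against 7035 in S303/7A. Whether depth has a part in the higher core sums of C04 and C11 was not tested. With cells thinned to 1000 UMIs the core ratios of C04 were 1.19 and 1.18.

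The median member varied less between cell types than the median gene did. The ratio of the highest to the lowest cluster level, averaged over the libraries, had a median of 2.30 for the 37 members measured in each compared cluster, and 3.36 for the 3660 genes measured in each. These genes were not matched to the members in level, and the part of level in the gap was not tested. The narrowest were Psmd4 (1.58), Psmd6 (1.59), Psmd14 (1.62), Psmb4 (1.65) and Psmc5 (1.78). Psmd4 lay between 1.13 CP10K in C09 and 1.78 in C17, and Psmb4 between 1.67 in NK cells and 2.76 in C11. The widest were Psme2 (15.1) and Psme1 (14.8), from 1.36 and 0.827 CP10K in C14 to 20.5 and 12.2 in C17. Psmd13 (3.87), Psma1 (3.49) and Psme3 (3.09) came next. Psma1 lay between 0.794 CP10K in C08 and 2.78 in C07.

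Correlations over the 34 cluster and library values describe which members varied together; the values share libraries, depth and denominators. Pearson's r of log2 levels with the sum of the other core genes ran from 0.59 to 0.91 for the alpha ring and from 0.57 to 0.78 for the catalytic genes. It ran from 0.27 to 0.81 for the ATPases and from 0.00 to 0.62 for the non-ATPase subunits. Psme1 and Psme2 had r of 0.37 and 0.41 with the core, but 0.97 and 0.91 with the sum of Psmb8, Psmb9 and Psmb10. Psma1 (0.90) and Psma2 (0.83) also varied with that sum, and Psmb5, Psmb6 and Psmb7 did not (0.05, 0.02 and 0.06). The sum of all members, Psme1 and Psme2 among them, was compared with 1236 other genes of at least 1 CP10K on average. Those most like it included Hspa8 (r of 0.89), a chaperone gene, Ube2l3 (0.83), a ubiquitin-conjugating enzyme, and Tbcb (0.80). Others were Myl12b (0.77), Actg1 (0.76), Cwc15 (0.73), Psmb8 (0.73), Chmp2a (0.72) and Arf5 (0.71). With the core sum alone, Psmb8 had r of 0.45.

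Genes that work with the proteasome did not share 1 direction, and the counts below stand beside the 52.4% of all genes with a median log2 ratio below 0. Of 12 assembly factors and modifiers in the table, 6 had a median log2 ratio below 0 and 6 above. Pomp, which matures the core, was lower in 15 of 17 clusters (median -0.26), and Sem1, a small 19S subunit, was lower in 6 (median 0.11, with the interval above 1 in 11). Of 14 genes of ubiquitin and its delivery, 10 were below 0. The shuttle gene Rad23b was above 0, with a median of 0.16. Of 5 genes of transcriptional control, 3 were below 0: Nfe2l2 (-0.28), Hsf1 (-0.21, lower in 13 of the 15 clusters where it was measured) and Ddi2 (-0.11). Nfe2l1, the known activator of proteasome genes, was at 0.02. Paaf1 was not analysed here.

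Some members have near-identical copies elsewhere in the genome. Of the 31-base stretches in the last 500 bases of the transcript, where 3′ tags fall, 77.2% in Psma5, 73.6% in Psmb3, 68.7% in Psme2, 63.4% in Psmb5, 58.5% in Psmd1 and 57.7% in Psmd2 also occur in another gene, in most cases a gene model named Gm. The values of these 6 are uncertain to that extent, since how such reads were counted is not given in the sources used here. Copies listed in the table were low. Psme2b, the copy of Psme2, had 0.206 (WT) and 0.156 (S303/7A) CP10K over all cells, beside 5.64 and 4.86 for Psme2. In 20 members no such stretch was shared.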

How the data were processed

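Per the labels' protocols, sorted cells were captured in droplets and sequenced from the 3′ end with version 2 reagents of 10x Genomics. Expression was deposited by the authors on a natural log scale, as the log of 1 plus UMIs per 100000 UMIs of the cell, rounded to 3 decimals. Deposited total UMI counts and gene counts per cell are whole counts, and the mitochondrial share was deposited as a percent. The names Cell Ranger, Seurat 3.0, mm10 and GRCm38 come from the submitters' processing notes. How cells were filtered and clustered is not described in these sources.

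Undoing the log gave whole UMIs for 99.9% of values (within 0.1 UMI). The shallowest of 11456 cells had 538 UMIs. Ratio intervals are exact conditional (Clopper-Pearson). No doublet caller was run. Members, roles, gene lists and settings were chosen with earlier results of these data known. Named genes were the catalytic genes, Psme1, Psme2, the 5 widest and 5 narrowest members, the 2 highest and 2 lowest per cluster, listed pathway genes and the 10 genes most like the members. Some genes under this rule are not reported here. Psma7 and others outside this rule were named after values were seen. The interval was tested on simulated UMIs that varied by counting error only, so that test does not cover variation between cells. Transcripts came from GENCODE M21. Python 3.11.15, numpy 2.4.6, scipy 1.17.1, pandas 2.3.3 and matplotlib 3.10.9 were used.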

Additional observations from a re-analysis of the deposited data

Results flagged for a closer look

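In 2 clusters the summed regulatory genes differed from the majority. The ratio of their summed UMIs, S303/7A over WT, was 1.039 (1.008 to 1.071) in the CD8 T cluster C11 and 1.049 (1.020 to 1.078) in the tumor cluster C14, while the interval lay below 1 in 11 other clusters. The difference between clusters was not tested, since each genotype had 1 library. In C14 the mean over cells gave a ratio of 0.998, so the direction there depends on how cells are weighted.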

How the results depend on the processing

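With 1 library per genotype nothing here separates genotype from library, and depth differed between them. The number of clusters with the lower value in S303/7A was 13 to 16 for the core sum, 11 to 14 for the regulatory sum, 10 to 13 for the median member and 14 to 17 for the immunoproteasome share, over changes of measure, thinning, shallow cells, deep cells, denominator, centring, filter and pseudocount. The regulatory sum without Psme1 and Psme2, a setting chosen after seeing the data, was lower in 8. The core ratio of C04 in WT was 1.202 from summed UMIs, 1.193 from thinned cells, 1.2 without ribosomal and mitochondrial UMIs and 1.208 without Psma7 (also chosen after seeing the data), and in S303/7A it was 1.187 from summed UMIs and 1.183 from thinned cells. For C11 it was 1.269 in WT from thinned cells and 1.245 in S303/7A without ribosomal and mitochondrial UMIs. For C13 in S303/7A these settings gave 1.083 and 1.067. Of 67 such counts and ratios, 11 moved. Of the log2 ratios per cluster, 31 of 119 for the core sum and 35 of 119 for the regulatory sum moved by more than their counting interval. For the core these included 8 of 17 on thinning and 9 of 17 without ribosomal and mitochondrial UMIs. For the regulatory sum they included 10 on thinning, 6 without ribosomal and mitochondrial UMIs and 12 without Psme1 and Psme2. Of the remaining values, 2 of 72 gene medians and 0 of 204 member medians moved. Their limit was the typical counting interval of a single gene in a single cluster, which is wide for a median. These counts therefore cannot show that the medians were stable. No value past 0.32 on the log2 scale changed sign, but no core sum and no member median was that large. The core sums of NK cells, C11 and C12 did change sign without ribosomal and mitochondrial UMIs. Leaving out ribosomal and mitochondrial genes moved the median of all genes by 0.08 at most on the log2 scale. Thinning left out 199 WT and 63 S303/7A cells. No paired analysis was possible because each genotype has 1 library and the labels carry no replicate number.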
